A study of Mus musculus with 4 samples.

Results

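Macrophage genes were followed in the mammary gland of Mt2-mmp knockout and wild-type mice through every probe set annotated to exactly 1 of 10 symbols: Csf1r, Cd68, Mrc1, Cd163, Lyz2, C1qa, C1qb, C1qc, Mpeg1 and Ctss. Each symbol had 1 such probe set, which gave 10 of the 45037 probe sets that were not array controls. The study put labelled RNA of intact inguinal glands on 4 Affymetrix expression arrays, 2 from Mt2-mmp(-/-) mice, which lack this membrane-anchored matrix metalloproteinase in all tissues, and 2 from Mt2-mmp(+/+) littermates. All mice were on a congenic C57Bl/6J background and 10 days old, and 200 ng of total RNA was labelled for each array. The labels call the arrays of a genotype biological replicates but do not give the number of mice behind an array or their sex, so p-values measure the spread between these arrays. Mt2-mmp is the older name of Mmp15. The targeted gene was not analysed here, and the genotypes are therefore as labelled.

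Macrophages are resident phagocytes that live among the ducts and fat cells of the mammary gland, where they clear dying cells and take part in duct growth. They depend on the receptor Csf1r for survival, take up debris through scavenger receptors such as Mrc1 and Cd163, break it down in lysosomes that carry Cd68 and cathepsin S (Ctss), and secrete lysozyme (Lyz2) and the complement component C1q. In whole-gland RNA, fewer macrophages and less RNA per macrophage cannot be told apart. Fat, epithelium and stroma were all present in these glands, with log2 values of 13.14 to 13.26 for the adipocyte hormone Adipoq, 9.01 to 9.47 for the luminal keratin Krt8 and 12.02 to 12.29 for Col1a1, a chain of type I collagen. The 10 macrophage probe sets lay between 7.22 and 10.99 on the log2 scale in all arrays, above the highest value of the 23 nonspecific control probe sets, 6.96. The standard macrophage marker Adgre1, which is not among the 10, had log2 values of 7.91 to 8.08 over the 4 arrays and a fold change of -0.03. Another, Itgam (CD11b), had 4.06 to 4.28, within the range of the nonspecific controls. Over all probe sets the arrays correlated between 0.995 and 0.997, and their medians lay between 5.20 and 5.21.

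The stretches upstream of 5 of the genes are shown because the first 3, Ctss, Mpeg1 and Mrc1, are those whose values did not overlap between genotypes, and because C1qb and C1qc belong to a block of neighbouring genes. Each is the 250 bases before the start of the gene in RefSeq (build GRCm38.p6), 5′ to 3′ on the gene's strand. Capitals mark matches, on either strand, to 2 short motifs: GAGGAA, a core bound by PU.1, the master regulator of myeloid cells, and the core of the interferon response element, which is GAAA followed by any 2 bases and GAAA again. No 2 matches overlapped.

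Ctss, chr3:95526536-95526785, plus strand: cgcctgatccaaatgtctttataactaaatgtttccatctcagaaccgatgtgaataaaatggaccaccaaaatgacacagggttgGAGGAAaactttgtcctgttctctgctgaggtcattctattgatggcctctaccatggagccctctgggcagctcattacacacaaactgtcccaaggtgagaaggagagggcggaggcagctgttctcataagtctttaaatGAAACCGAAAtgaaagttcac
Mpeg1, chr19:12460520-12460769, plus strand: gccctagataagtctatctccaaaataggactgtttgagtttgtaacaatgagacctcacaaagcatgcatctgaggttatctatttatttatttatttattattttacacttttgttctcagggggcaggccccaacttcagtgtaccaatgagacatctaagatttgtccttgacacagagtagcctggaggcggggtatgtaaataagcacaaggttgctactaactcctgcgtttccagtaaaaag
Mrc1, chr2:14229164-14229413, plus strand: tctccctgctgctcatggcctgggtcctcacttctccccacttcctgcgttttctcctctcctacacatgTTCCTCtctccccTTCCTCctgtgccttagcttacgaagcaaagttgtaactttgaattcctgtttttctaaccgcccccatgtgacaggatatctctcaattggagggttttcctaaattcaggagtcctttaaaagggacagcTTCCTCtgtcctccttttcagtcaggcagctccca
C1qb, chr4:136886201-136886450, minus strand: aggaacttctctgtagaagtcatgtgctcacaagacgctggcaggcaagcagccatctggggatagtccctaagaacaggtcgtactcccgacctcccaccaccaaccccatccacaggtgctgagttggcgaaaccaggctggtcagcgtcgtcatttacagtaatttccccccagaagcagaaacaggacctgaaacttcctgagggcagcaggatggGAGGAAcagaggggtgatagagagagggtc
C1qc, chr4:136892915-136893164, minus strand: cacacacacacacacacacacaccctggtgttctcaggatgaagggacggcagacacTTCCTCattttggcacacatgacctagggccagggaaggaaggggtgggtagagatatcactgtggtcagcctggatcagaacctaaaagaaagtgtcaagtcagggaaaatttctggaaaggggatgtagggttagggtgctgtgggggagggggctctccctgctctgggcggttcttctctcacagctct

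The upstream table held 8 of the 10 genes. GAGGAA was found upstream of 5 of these 8 (Cd68, Mrc1, C1qb, C1qc and Ctss), against 23.3% of the 32851 upstream windows of this length in the table. The interferon core was found upstream of 1 of the 8, Ctss, 21 to 12 bases before its start, against 2.98% of all windows. The stretch upstream of Mpeg1 held neither motif. The C/EBP core TTGCNNAA was found upstream of Cd68 alone among the 8 (9.56% of all windows), and CACGTG, the E-box read by TFEB, a regulator of lysosome genes, upstream of none (6.02% of all windows). A match is a description of letters and does not show that a factor binds there.

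None of the 10 macrophage genes passed the test between genotypes. All 10 had a lower mean in knockouts, but 8 of the differences were small, between -0.10 and -0.04 on the log2 scale, and 7 of these 8 changed sign when 1 array was left out. Mpeg1, a pore-forming protein of the phagosome, and Ctss had the 2 larger differences. By limma 0 of 10 had an adjusted p under 0.05 (0.722 to 0.99), in a comparison where 0.00444% of all probe sets had one, and 2 of 10, both lower in knockouts, had an unadjusted p under 0.05, where 3.17% of all probe sets were lower and 3.48% higher at that level. The median log2 fold change of the 10 was -0.07, beside -0.001 over all probe sets, and 50.7% of all probe sets lay below 0. The 10 genes were read from the same 4 RNA samples and are not independent replicates of one another.

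Mpeg1 had log2 values of 7.31 and 7.62 in knockouts 1 and 2 and of 7.79 and 7.91 in wild type 1 and 2. Both knockout arrays lay below both wild-type arrays. The knockout mean of 7.47 ± 0.220 and the wild-type mean of 7.85 ± 0.087 (SD, n = 2 arrays for either) gave a log2 fold change of -0.39 (SE 0.121, 95% interval -0.69 to -0.08), which is 23.5% lower, with an unadjusted p of 0.0212 and an adjusted p of 0.722 by limma. The gap between the knockout arrays was 0.31, so the difference between genotypes was only slightly larger than the spread within one of them. Without knockout 1 the log2 fold change was -0.23, and without knockout 2 it was -0.54.

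Ctss, a cysteine protease that trims the invariant chain Cd74 during antigen presentation, had log2 values of 9.26 and 9.40 in knockouts 1 and 2 and of 9.54 and 9.66 in wild type 1 and 2. The genotypes again did not overlap, and the order of the arrays was that of Mpeg1. The knockout mean of 9.33 ± 0.102 and the wild-type mean of 9.60 ± 0.084 (SD, n = 2 arrays for either) gave a log2 fold change of -0.27 (SE 0.086, 95% interval -0.48 to -0.05) or 16.9% lower, with an unadjusted p of 0.0245 and an adjusted p of 0.727 by limma. With 1 array left out it ran from -0.34 to -0.19. Cd74 itself lay at -0.05, with both genotypes overlapping, and Cst3, an inhibitor of cathepsins, at 0.11.

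Mrc1, the mannose receptor, was the third gene without overlap, with log2 values of 9.96 and 9.98 in knockouts 1 and 2 and of 10.10 and 10.03 in wild type. The arrays of each genotype were close together, and the difference was also small, -0.10 (SE 0.070, 95% interval -0.28 to 0.07, limma adjusted p = 0.832). So 3 of 10 probe sets had both knockout arrays below both wild-type arrays, beside 18.6% of all probe sets, and none of the 10 had the opposite order, which 17.8% of all probe sets had.

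In the other 7 genes the genotypes overlapped, and in each the larger gap between arrays of one genotype exceeded the difference between genotypes. Csf1r, the receptor for the growth factors CSF1 and IL-34, had log2 values of 8.56 and 8.72 in knockouts 1 and 2 and of 8.72 and 8.69 in wild type. Knockout 1 stood below the other arrays, which were level with one another. The fold change was -0.06 (95% interval -0.27 to 0.14), and 0.02 without knockout 1. Cd163, the receptor that takes up haemoglobin bound to haptoglobin, had 8.61 and 8.92 in knockouts against 8.87 and 8.74 in wild type. Its lowest and its highest array were both knockouts. The fold change was -0.04 (95% interval -0.34 to 0.27), and 0.12 without knockout 1. Cd68, a glycoprotein of the lysosomal membrane, had 7.22 and 7.44 in knockouts against 7.56 and 7.23 in wild type. Here knockout 1 and wild type 2 were low together, with a fold change of -0.07 (95% interval -0.41 to 0.28) that was 0.10 without wild type 1 and 0.04 without knockout 1. Lyz2, the lysozyme of macrophages and neutrophils, had 10.78 and 10.80 in knockouts against 10.99 and 10.77 in wild type. Wild type 1 alone stood high, and without it the fold change of -0.09 became 0.02. The probe set of Lyz2 is of the type marked x, whose probes can also match similar transcripts, and Lyz2 lies next to its near copy Lyz1 in RefSeq. The separate probe set of Lyz1 had log2 values of 3.68 to 4.07, among those of the nonspecific controls.

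C1qa, C1qb and C1qc encode the 3 chains of C1q, which opens the classical complement pathway and tags dying cells for uptake. They are consecutive genes on chromosome 4, in the order C1qb, C1qc, C1qa. C1qa had log2 values of 9.82 and 9.97 in knockouts 1 and 2 and of 9.95 and 9.96 in wild type. C1qb had 9.42 and 9.62 against 9.55 and 9.60, and C1qc 9.20 and 9.42 against 9.28 and 9.43. Knockout 1 was the lowest array for each chain, by 0.09 to 0.13 against the next lowest, while knockout 2 stood above both wild-type arrays for C1qa and C1qb and between them for C1qc. The fold changes were -0.06 for C1qa (95% interval -0.26 to 0.14), -0.06 for C1qb (95% interval -0.28 to 0.17) and -0.05 for C1qc (95% interval -0.31 to 0.21). Without knockout 1 they were 0.01, 0.04 and 0.06, and without wild type 2 that of C1qc was 0.02.

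**Figure D1:**
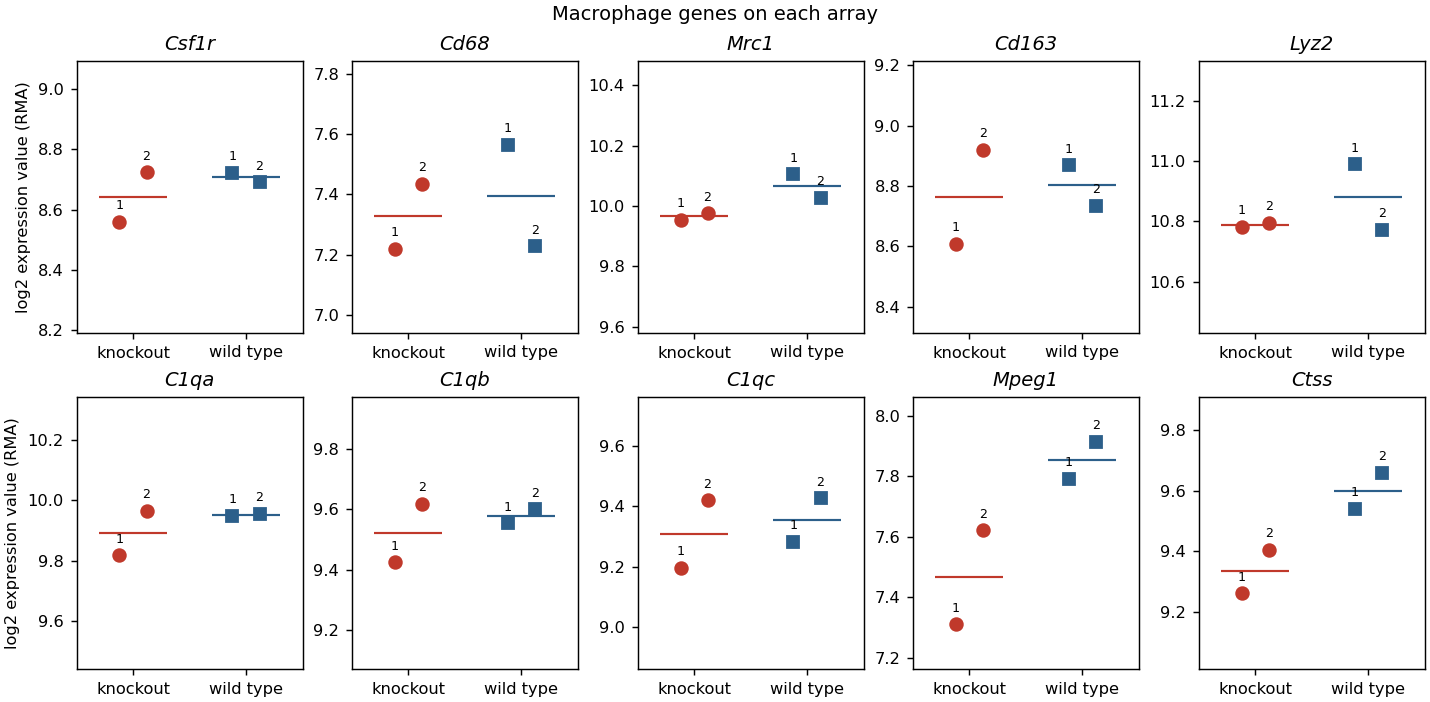
Log2 expression values (RMA, vertical axis, each panel spanning 0.9) of the 10 macrophage genes on 2 knockout arrays (circles) and 2 wild-type arrays (squares), numbered by replicate, with horizontal lines at the means. The genotypes are separate for Mrc1, Mpeg1 and Ctss and overlap in the other 7 panels, and knockout 1 is the lowest array in 9 panels.

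Most of the shared pattern was a low knockout 1. This array was the lowest of the 4 for 9 of the 10 genes, beside 27% of all probe sets, and the median of the 10 genes lay 0.13 below each gene's own mean there. The medians of the other arrays were 0.046 in knockout 2, 0.080 in wild type 1 and 0.025 in wild type 2, so knockout 2 lay between the wild-type arrays. Without knockout 1, 4 of the 10 genes were below 0, with a median of 0.015, and 0 of 10 had an unadjusted p under 0.05 by limma. These 4 were Mpeg1, Ctss, Mrc1 and Lyz2. Without wild type 1, 7 of 10 were below 0, and without wild type 2, 9 of 10. The gap between the knockout arrays had a median of 0.178 over the 10 genes, beside 0.089 over all probe sets, and the gap between the wild-type arrays 0.121, beside 0.089.

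**Figure D2:**
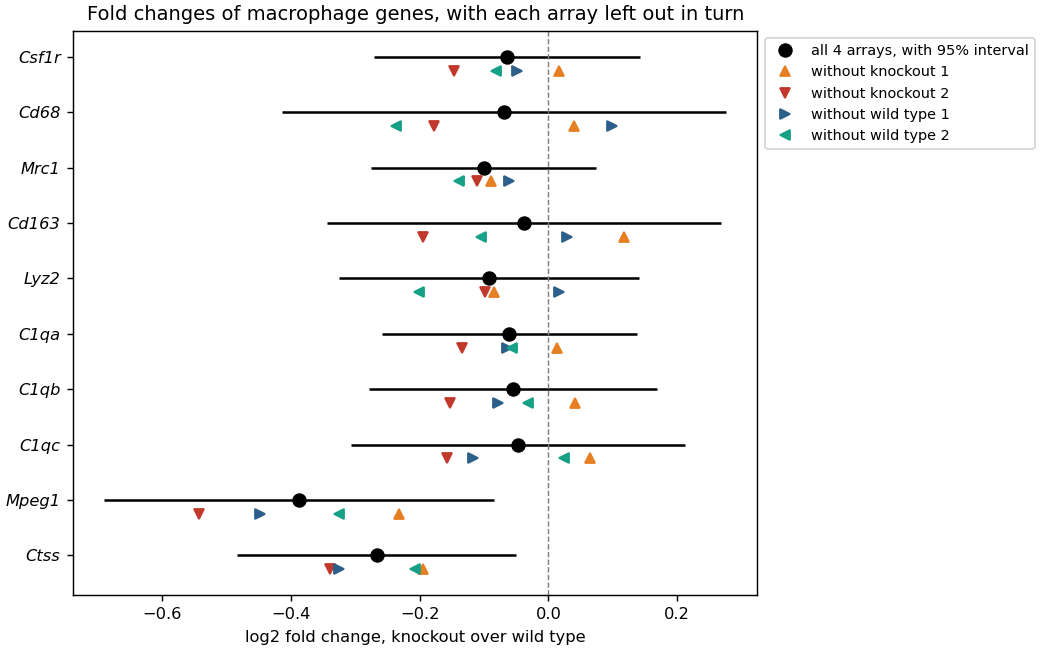
Log2 fold changes of knockout over wild type (horizontal axis) for the 10 macrophage genes, with the limma 95% interval over 4 arrays (black) and the value with each array left out (coloured triangles). Only the intervals of Mpeg1 and Ctss lie wholly below 0, and without knockout 1 the values of 6 genes are above 0.

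Genes whose 4 values followed the median pattern of the macrophage genes most closely were Zc3hc1, Lst1, Wdr62, Plcl2, Nck2 and Fxyd2. Likeness was the Euclidean distance between deviations from a gene's own mean over the 4 arrays, taken over 9379 other genes with a mean log2 value of at least 6, and the distances were 0.012 to 0.026. Of the 10 macrophage genes Csf1r was closest to the pattern, at 0.037, with 21 other genes closer. Mpeg1 was farthest, at 0.333. With 4 arrays such likeness is a description only.

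The ligands and partners of these genes lay on both sides of 0. Csf1, the growth factor that Csf1r binds, had log2 values of 8.70 and 8.63 in knockouts 1 and 2 and of 8.48 and 8.33 in wild type 1 and 2. It thus lay higher in both knockouts while its receptor did not, with a fold change of 0.26 (SE 0.081, limma unadjusted p = 0.0221, adjusted p = 0.725), and its 4 probe sets ran from 0.10 to 0.38. Il34, the other ligand, had 0.07 at log2 values of 4.63 to 4.80, and Spi1, which encodes PU.1, had -0.05 with overlapping genotypes. Irf8 and Runx1, transcription factors of myeloid cells, had -0.27 (adjusted p = 0.727) and -0.22 (adjusted p = 0.747), with probe sets from -0.27 to -0.12 and from -0.27 to -0.003, and Irf8 had -0.18 without knockout 1. Irf8, at log2 values of 6.19 to 6.59, and Spi1, at 4.83 to 5.35, did not exceed the highest nonspecific control on any array. Haptoglobin (Hp), the carrier whose complex Cd163 takes up and which other cells also make, had log2 values of 11.26 and 11.72 in knockouts against 10.75 and 10.49 in wild type, a fold change of 0.87 (SE 0.172, limma adjusted p = 0.697).

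Across the pathway lists no gene had an adjusted p under 0.05 by limma, where 0.00585% of the 17097 genes, each read at its brightest probe set, had one. At an unadjusted p under 0.05, the share of those genes was 3.54% lower and 3.81% higher in knockouts, and 51.2% lay below 0 with a median of -0.002. The CSF1 receptor axis had 15 of 17 genes measured, 8 below 0, with 2 lower and 1 higher at that level. Of these 15, 6 did not exceed the highest nonspecific control on any array. The complement list had 14 of 18, 6 below 0, with 0 lower and 1 higher. That gene was Cfb, the factor B of the alternative pathway, at 0.43 with log2 values of 8.14 and 8.46 in knockouts against 8.06 and 7.70 in wild type. Other values in this list were 0.19 for Cd93, -0.22 for C3ar1 and 0.10 for C5ar1, receptors of which C3ar1 binds a fragment of C3 and C5ar1 one of C5. These values leaned on single arrays: C3ar1 had -0.01 without knockout 1, and without wild type 2 Cfb had 0.25, Cd93 0.06 and C5ar1 0.01. The 3 probe sets of Cd93 ran from 0.07 to 0.31 and the 3 of C3ar1 from -0.36 to -0.21. C5ar1 was dim, at log2 values of 5.35 to 5.56, and its second probe set had -0.03. The lysosomal list had 20 of 22, 6 below 0, with a median of 0.035 (-0.013 without knockout 2) and 0 in either direction at that level. Ctsc had -0.14, Ctsd 0.14 and Psap 0.09 (0.06 for both Ctsd and Psap without knockout 2), and 14 of the 20 lay above 0.

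Other macrophage genes lay lower in knockouts more often than higher. Of 25 listed, 23 were measured and 19 lay below 0, with a median of -0.13, and 5 had an unadjusted p under 0.05, all lower, while 0 passed over all probe sets. In 10 of the 23 both knockout arrays lay below both wild-type arrays, beside 19.4% of all genes. In 1, Tlr4 (0.19), both lay above, beside 18.2% of all genes. Slc11a1, a metal transporter of the phagosome, had log2 values of 6.85 and 6.87 in knockouts against 7.15 and 7.15 in wild type (-0.29, SE 0.066, limma adjusted p = 0.697). Cybb, a subunit of the phagocyte oxidase, had 7.55 and 7.81 against 8.01 and 8.11 (-0.38), and its 3 probe sets ran from -0.38 to -0.22. Cd14, a coreceptor for bacterial lipopolysaccharide, had -0.26 and Maf, a transcription factor of resident macrophages, had -0.29. Without knockout 1 the median of this list was -0.04, and Slc11a1, Cybb, Cd14 and Maf had -0.28, -0.25, -0.21 and -0.14. Maf, at log2 values of 6.38 to 6.82, did not exceed the highest nonspecific control on any array, as was so for 9 of the 23. Among 16 of 17 Fc and immune signalling receptors measured 14 lay below 0 (median -0.08), 3 of them at an unadjusted p under 0.05: the IgG receptors Fcgr2b (-0.27), Fcgr4 (-0.49) and Fcgr1 (-0.70), of which Fcgr1 stood high in wild type 2 and had -0.29 without it. The second probe set of Fcgr1 had -0.12. Fcgr4 was dim, with log2 values of 4.20 to 4.99, and had -0.32 without knockout 1. In all, 8 of the 16 receptors did not exceed the highest nonspecific control on any array. The median of the receptor list was -0.02 without knockout 1.

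Genes of resident adipose and ductal macrophages, which Mrc1 and Cd163 also mark, lay above 0 more often than below. Of 18 listed, 17 were measured and 12 lay above 0, with a median of 0.04 (-0.015 without knockout 2). In 7 both knockout arrays lay above both wild-type arrays, beside 18.2% of all genes. In 2, Ccl24 (-0.17) and Clec10a (-0.07), both lay below, beside 19.4% of all genes. Cbr2, a carbonyl reductase, had log2 values of 9.04 and 9.14 in knockouts against 8.72 and 8.62 in wild type (0.42, SE 0.077, limma adjusted p = 0.673). Fcrls had 0.24, and the lectins Cd209g and Cd209f had 0.49 and 0.27, none of which passed. Without knockout 1 Cd209g had 0.27 and Cd209f 0.16, and without wild type 2 they had 0.27 and 0.15. Cd209g, at log2 values of 5.61 to 6.54, did not exceed the highest nonspecific control on any array, as was so for 3 of the 17. Lyve1, a hyaluronan receptor of resident macrophages and lymphatic vessels, had 0.14 (0.07 without knockout 2), Folr2, a folate receptor, 0.01, and Timd4, a receptor for dying cells, -0.07. Among scavenger and lectin receptors 17 of 20 were measured, with 10 below 0 and a median of -0.03 (0.007 without knockout 1). Of these 17, 7 did not exceed the highest nonspecific control on any array. At an unadjusted p under 0.05, Clec7a, a receptor for fungal glucans (-0.31, and -0.20 without wild type 2), and Mgl2 (-0.29, and -0.16 without knockout 1) were lower, and Cd209a (0.24, log2 values of 4.22 to 4.60) and Mrc2, a collagen receptor related to Mrc1 (0.21), were higher. Without wild type 2 Cd209a had 0.16 and Mrc2 0.14, and the second probe set of Mrc2 had 0.03.

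**Figure D3:**
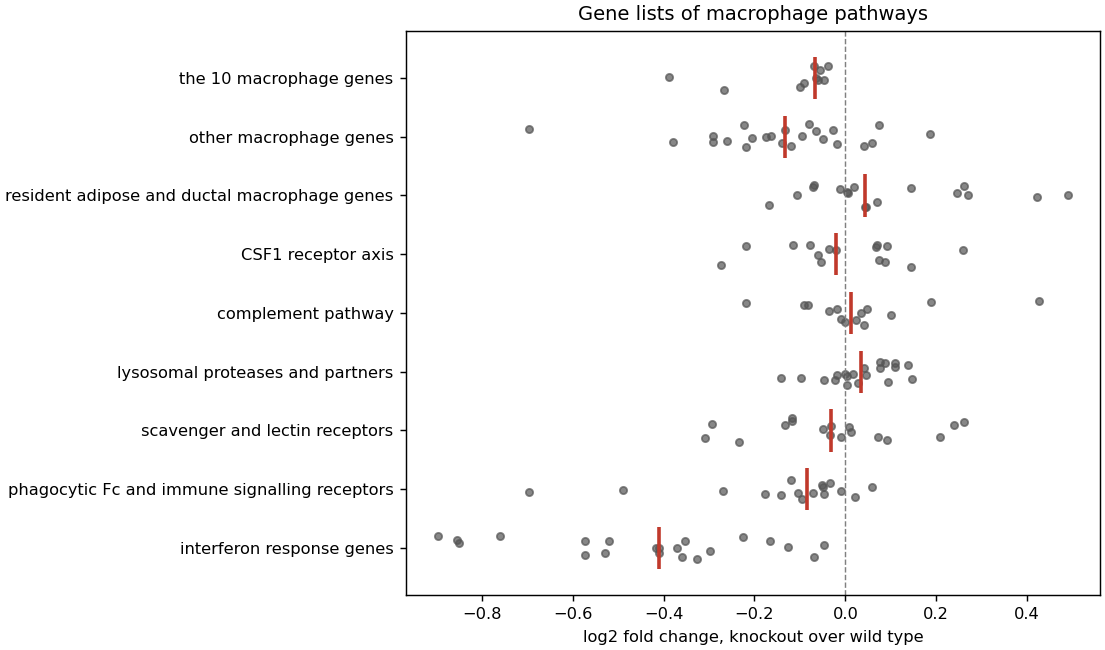
Log2 fold changes of knockout over wild type (horizontal axis) of each gene (points, brightest probe set) in 9 lists, with the list median as a red bar. Points of the resident macrophage and lysosomal lists lie on both sides of 0 with medians of 0.042 and 0.035, while all 21 interferon response genes lie below 0.

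The levels of markers of other cells that can carry the same transcripts follow, and their part in these results was not tested. Pan-leukocyte markers showed the low knockout 1 too, with a median deviation of -0.11 there against -0.005 to 0.063 on the other arrays. Of 14 measured 10 lay below 0 (median -0.06, and 0.047 without knockout 1), and their summed linear signal was 2866 to 3227 in knockouts and 3112 to 3223 in wild type. Ptprc (CD45), found on all leukocytes, had -0.21 (-0.11 without knockout 1), with log2 values of 8.20 and 8.39 in knockouts against 8.52 and 8.48 in wild type. The summed signal of the 10 macrophage genes was 6619 and 7210 in knockouts and 7542 and 7289 in wild type. Neutrophil markers, of which Lyz2 is another, had 9 of 13 below 0 and a summed signal of 1069 to 1274 in knockouts against 1332 to 1379 in wild type. Of these 13, 10 did not exceed the highest nonspecific control on any array, and S100a9, at -0.52 (-0.32 without knockout 1), was among those that did. Mast cell markers had 9 of 10 below 0, with a summed signal of 3831 to 4567 against 4377 to 4706. Dendritic cell markers had 7 of 13 below 0, at 4906 to 5242 against 4675 to 5397, and Flt3, which defines these cells, had log2 values of 5.27 to 5.51. Monocyte markers had 5 of 11 below 0, at 10802 to 12405 against 10276 to 10306. This list holds Hp, a bright gene at log2 values of 11.26 and 11.72 in knockouts against 10.75 and 10.49 in wild type. The sum without Hp is not given here. Plac8 went the other way at -0.42 (-0.19 without wild type 2), with both knockout arrays below both wild-type arrays. Ccr2, which defines monocytes, had -0.04, and its 4 probe sets ran from -0.20 to -0.04. Its brightest probe set, at log2 values of 6.58 to 6.65, did not exceed the highest nonspecific control on any array. Lymphatic markers had 5 of 8 below 0, at 1590 to 1714 against 1478 to 1563, and Prox1, which defines lymphatic endothelium, had log2 values of 3.80 to 3.90, among the nonspecific controls. T and NK cell markers had 11 of 14 below 0, at 978 to 1047 against 827 to 980. The highest fold change in this list was that of Thy1, 0.35 (0.15 without wild type 2), and the sum without Thy1 is not given here. B cell markers had 1 of 10 below 0, at 300 to 310 against 246 to 264. Of these, 13 of the 14 T and NK cell genes and all 10 B cell genes did not exceed the highest nonspecific control on any array. The same held for 8 of the 13 dendritic cell genes, 5 of the 11 monocyte genes and 5 of the 14 pan-leukocyte genes. It also held for 4 of the 10 mast cell genes and 4 of the 8 lymphatic genes.

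By their median, interferon response genes had the array order of Mpeg1 and Ctss, which some other macrophage genes had too. All 21 measured of 26 lay below 0, with a median of -0.41 and 5 at an unadjusted p under 0.05, and 9 of the 21 did not exceed the highest nonspecific control on any array. The summed signal was 3152 and 3898 in knockouts and 3919 and 5904 in wild type. The median deviation of the list was -0.30 in knockout 1, -0.08 in knockout 2, -0.04 in wild type 1 and 0.40 in wild type 2, the order of the arrays in Mpeg1 and Ctss. Mpeg1 deviated by -0.35, -0.04, 0.13 and 0.26 on the same arrays and Ctss by -0.21, -0.06, 0.07 and 0.19, whereas Mrc1 was highest in wild type 1. Of the other macrophage genes, Cybb deviated by -0.32, -0.06, 0.14 and 0.24, and Cd14 by -0.18, -0.08, 0.07 and 0.19. The order was thus not particular to the interferon list, and its share over all probe sets is not given here. Without wild type 2 the fold changes of Mpeg1 and Ctss were -0.33 and -0.21, and the median of the interferon list was -0.15. The part of the interferon signal in either gene was not tested. Epidermis and hair follicle genes, whose summed signal was 7323 and 957 in knockouts 1 and 2 and 1000 and 6543 in wild type 1 and 2, separated the arrays across the genotypes. Of the 10 genes Csf1r, Cd68, Cd163 and Lyz2 had their 2 lowest values on the arrays where these genes were high, knockout 1 and wild type 2. For C1qc, Mpeg1 and Ctss wild type 2 was instead the highest array. The share of all probe sets with either pattern is not given here. The part of the epidermis and hair follicle signal in the 10 genes was not tested either.

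**Figure D4:**
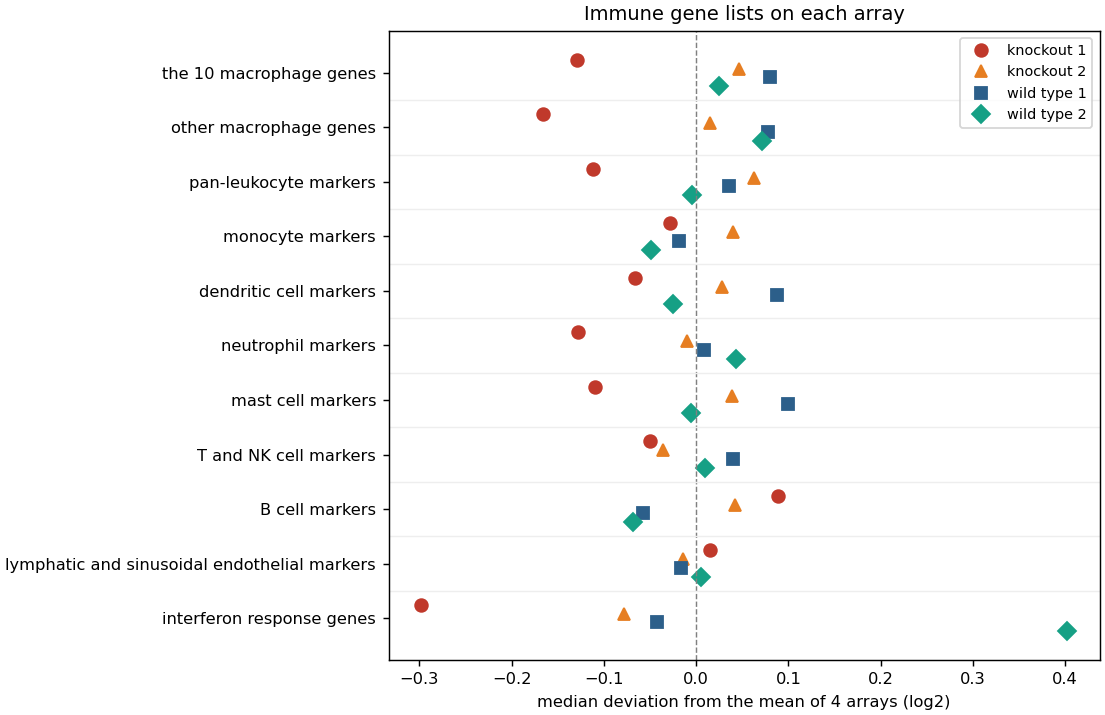
Median deviation of each gene list from the genes' own means over 4 arrays (log2, horizontal axis), with 1 symbol for each array. Knockout 1 lies at -0.13 for the 10 macrophage genes, -0.17 for the other macrophage genes and -0.11 for the pan-leukocyte markers, left of the other arrays, while wild type 2 stands apart in the interferon list.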

How the data were processed

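The authors deposited log2 values, 1 for each probe set and array, and the submitters' processing notes name RMA and the affy package. Versions and a genome build are not stated there. RMA subtracts background and equalises the distributions of the arrays, which removes a shift common to most genes and compresses the changes of dim ones. Of 45141 probe sets 104 were array controls. The platform annotation gave 1 symbol to 28898 probe sets (17097 genes) and several to 551, and 15588 were not listed. RefSeq (GRCm38.p6) matched 99.3% of the symbols by gene ID and changed 0.

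Genotypes were compared by limma 3.58.1 (lmFit, eBayes; R 4.3.3) over all 45037 probe sets, two-sided, without covariates, with Benjamini-Hochberg adjustment over all of them and a threshold of 0.05. The number of arrays limits the precision: the median SE of a log2 fold change was 0.081, with 2 residual and 3.43 prior degrees of freedom. With 2 arrays against 2, the smallest p of an exact permutation test is 0.333. Lists were read at the brightest probe set of each gene, and a summed signal adds 2 to the power of each log2 value. Some genes stand in more than 1 list. Probe sets of the 10 genes were all named, and in each list up to 4 genes of smallest p, plus markers that define a cell type. Partners of the 10 genes, such as Cd74, Il34, Spi1, Psap, Maf, Folr2 and Timd4, were named for their role after values were seen, where the rule did not name them. The members and lists were chosen with earlier results of these data known. Upstream sequences come from RefSeq. The steps were tested on simulated data. The alternatives were quantile normalization, median centring, brighter probe sets only, 1 value per gene, an intensity trend, robust variances, the replicate number as a block and each array left out. A crossed block was added after the data were seen.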

Additional observations from a re-analysis of the deposited data

How the results depend on the processing

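The main comparison called 2 probe sets over all 45037, of Gadd45gip1 and Prdx2, neither a macrophage gene, and the cause of changes in this count was not tested. It was 5 with quantile normalization, median centring, the intensity trend or robust variances, 3 with brighter probe sets only, 1 with the brightest probe set of each gene, 0 with the mean of probe sets, and 0 to 5 with 1 array left out. With the replicate block it was 0, and with the crossed replicate block, chosen after seeing the data, 0. Over all probe sets the deviations of same-numbered arrays correlated at -0.295. With 2 arrays a genotype, 1 such correlation cannot decide whether the replicate numbers pair the arrays. No macrophage gene was called by limma in any of these settings (lowest adjusted p 0.542). The number of macrophage genes below 0 was 10 in every setting that kept all arrays and 4 to 10 with 1 left out, with medians of -0.155 to 0.015. With 1 array left out Csf1r ran from -0.146 to 0.017, Cd68 from -0.236 to 0.099, Cd163 from -0.194 to 0.118, Lyz2 from -0.200 to 0.016, C1qa from -0.134 to 0.013, C1qb from -0.152 to 0.042 and C1qc from -0.158 to 0.065, each changing sign. Mpeg1, Ctss and Mrc1 kept their sign in all 13 alternatives, but this says little about them. Their genotypes did not overlap, so leaving out 1 array could not change the sign. Alternatives that alter only the variances or the choice of probe sets left their fold changes as they were. When an array is left out, the remaining one is taken to vary like the other genotype's. The lowest value of the 10 genes was 7.22, above the highest nonspecific control, 6.96. Whether background compressed their fold changes was not tested. With 2 arrays a genotype the 95% intervals are wide, from -0.41 to 0.28 for Cd68.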

Other observations

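All 10 epithelial markers lay below 0 at their brightest probe set (median -0.25, -0.20 without knockout 2), with Epcam, an epithelial adhesion molecule, at log2 values of 9.21 and 9.21 in knockouts against 9.54 and 9.50 in wild type, and the tight-junction gene Cldn3 at -0.24. The second probe set of Epcam had -0.05, and the 4 of Trp63 ran from -0.85 to 0.04. Without knockout 2 Cdh1, Cldn7 and Krt5 had 0.005, 0.006 and 0.04. Of 12 endothelial markers 11 lay above 0 (median 0.16, 0.06 without knockout 2), of 10 fibroblast markers 8 (median 0.06, 0.02 without wild type 2), and of 8 adipocyte markers 5 (median 0.01), among them Lep, the hormone leptin, at 2.19 (1.43 without wild type 2 and 2.95 without wild type 1). Of 17 epidermis and hair follicle genes 10 lay above 0 (median 0.02), a median that ran from -1.16 without knockout 1 to 1.01 without knockout 2. No gene of these 5 lists had an adjusted p under 0.05 by limma, and 4 epithelial genes, all lower, and 5 genes of the other lists, all higher, had an unadjusted p under 0.05.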
